A study of Mus musculus with 10 samples.

Results

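The genes described here encode proteins of the epithelial tight junction other than the claudins: Ocln, Marveld2, Marveld3, Tjp1, Tjp3, Cgn, F11r, Cxadr and Pard6b. These 9 genes, given by symbol and matched to Ensembl IDs through the GENCODE M21 annotation, are among 18047 genes in the deposited table, and all 9 had enough reads to be tested. The RNA came from tumours that the BALB/c-derived mammary carcinoma line 4T1 formed within 3 weeks of implantation into BALB/c mice. In the 5 KO libraries the implanted 4T1 cells carried a knockout of a single gene, and in the 5 WT libraries they did not. The labels give growth in the animal as the only treatment in both groups, and all 10 libraries carry the same batch label. The sources used here do not say whether the knockout line was 1 clone, and the libraries are whole tumour tissue, so host cells contribute RNA.

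The tight junction closes the space between neighbouring epithelial cells near their apical surface. Its membrane proteins are the claudins, the MARVEL proteins (occludin, tricellulin and MARVELD3) and the immunoglobulin-like proteins JAM-A and CAR. The zonula occludens (ZO) scaffolds and cingulin tie these to actin, and the PAR complex sets where along the cell flank the junction forms. In carcinomas of the breast the junction is a feature of the epithelial cells, while endothelial cells and leukocytes use some of the same adhesion and scaffold genes.

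The reads recovered from the table ran from 8609756 to 19934428 per library. No label says which animal a library came from, and p-values therefore reflect only how these libraries vary, which may in part be technical. An unexplained prefix, RESUB, opens the library names of KO5 and WT1 to WT4, and WT2 and WT5 share the library number 170. The epidermal keratin gene Krt1 was at 0 normalized counts in 7 libraries and at 44.6, 1152 and 343 in WT2, WT3 and WT5. Of an epithelial marker list all 22 genes were tested, and the epithelial adhesion gene Epcam ran from 551 to 1889.8 normalized counts in KO and from 1843 to 3789.8 in WT.

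Most of the members had lower levels in the KO tumours, but none was called. Of the 9 members 8 had lower fitted values in KO, with a median log2 difference of -0.67. Over all 17975 tested genes 51.0% were lower, with a median of -0.0073. The members were chosen with earlier results of these data known, so the counts given here describe them and are no test of junction genes. For the 31 tested genes of a further tight junction list the median was -0.12. With limma, adjusted over all tested genes, 0 of the 9 passed an adjusted p of 0.05, where 0.00556% of tested genes (1 gene) did. In simulated data the same step called 21.7% of changes of 1 log2 unit, so a gene not called may still differ. The simulated libraries had 200 changed genes and no shared differences in tissue make-up, so the rate in these data may be another. At an unadjusted p under 0.05 limma had 5 members lower and 0 higher, where 3.67% of tested genes were lower and 2.82% higher by that rule. edgeR and DESeq2, run on the recovered reads, called 0 of the 9, where they called 0.00556% and 0.673% of tested genes. With library weights estimated in limma, 408 of the 17975 tested genes passed, 175 of them lower. Among the 408 were 3 members, all lower: Marveld3 (adjusted p = 0.0205), Ocln (adjusted p = 0.0231) and Cgn (adjusted p = 0.0409). The members divide by size of difference. Marveld3, Cgn, Tjp3, Marveld2, Pard6b and Ocln, 6 of the 9, had log2 differences between -1.53 and -0.66, where 8.27% of tested genes lay at -0.5 or lower. Tjp1, F11r and Cxadr had differences between -0.097 and 0.071. The place of Tjp1 in this division was not firm: with the RESUB prefix as a term it was at -0.60, beside -0.60 for Tjp3 and -0.53 for Pard6b. That fit leans on KO5, the only KO library with the prefix, and WT5, the only WT library without it.

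**Figure D1:**
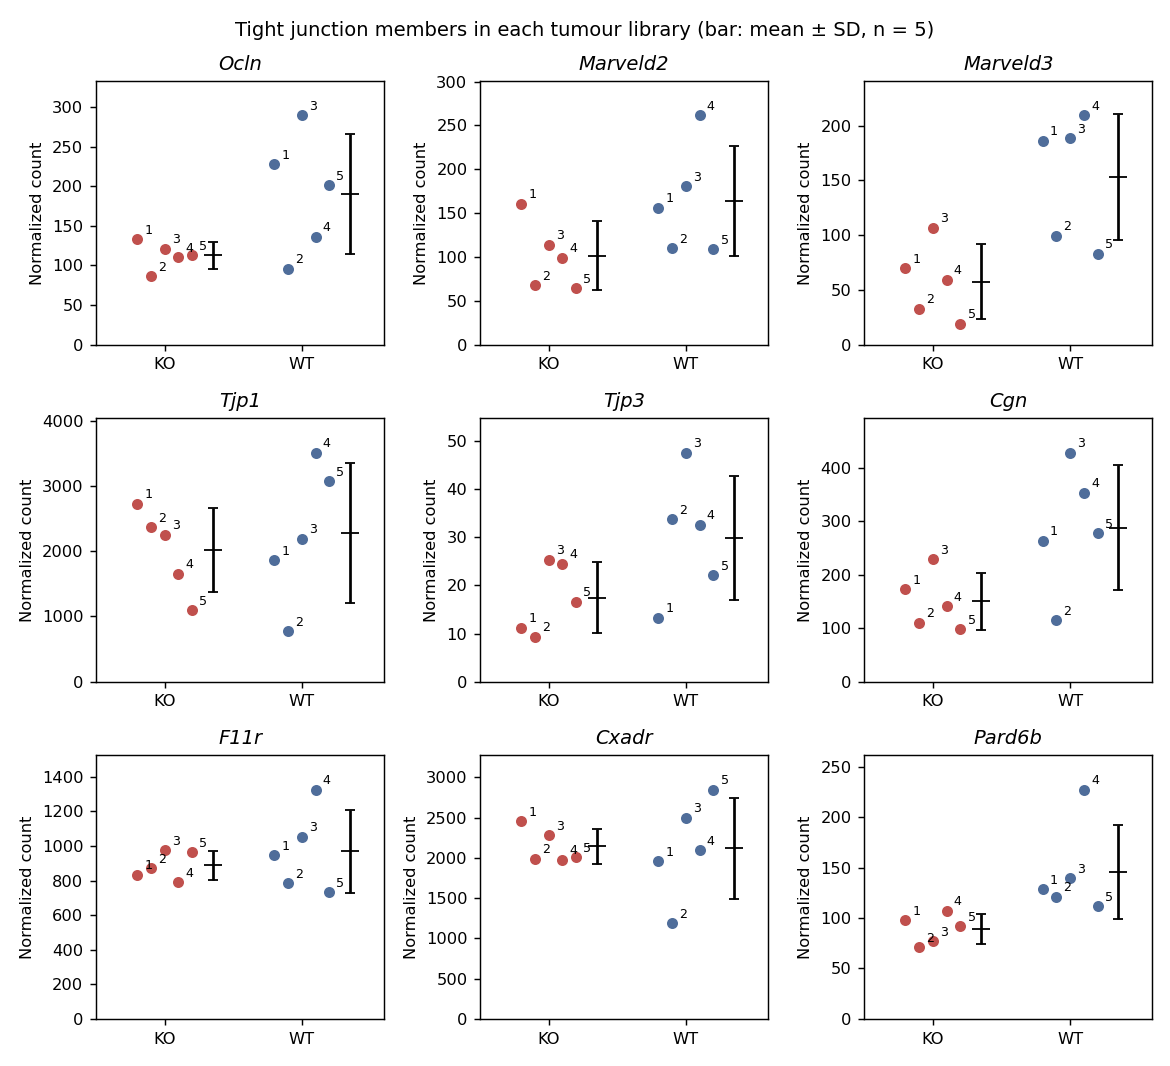
Normalized counts (y axis, from 0) of the 9 members in the KO libraries (red, left) and WT libraries (blue, right), each point numbered by replicate, with the mean and SD of 5 libraries as a black bar. Only for Pard6b does every KO point lie below every WT point, and the WT points spread more widely than the KO points for 7 of the 9 genes in SD relative to the mean.

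The junction's MARVEL proteins share a bundle of membrane-spanning segments. Marveld3, which encodes MARVELD3, showed the largest difference of the members. It had 69.9, 32.8, 107, 59.3 and 19.2 normalized counts in KO1 to KO5, against 186, 99.3, 188, 209 and 83.1 in WT1 to WT5. Of the KO libraries 4 lay below the lowest WT library, and KO3 lay above WT2 and WT5. The mean was 57.6 ± 34.2 in KO tumours, against 153 ± 57.6 in WT tumours (SD over 5 libraries each), a log2 difference of -1.53 ± 0.43 (SE) with a 95% interval of -2.45 to -0.60 (limma adjusted p = 0.484). The gene (ENSMUSG00000001672) lies on chromosome 8 of GRCm38 from 109947914 to 109962203, on the minus strand. Its difference depended on which libraries were set against each other: it was -3.03 within the libraries with the RESUB prefix, where KO5 is the only KO library, and -0.42 within those without it, where WT5 is the only WT library.

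Ocln encodes occludin, a membrane protein found along the whole junction. Its levels were 133, 86.3, 121, 110.4 and 113 normalized counts in KO1 to KO5, against 228, 95.6, 289, 136 and 202 in WT1 to WT5. The KO values lay close together, and all but that of WT2 among the WT values were above the highest of them. The KO mean was 113 ± 17.1 and the WT mean 190.1 ± 76.2 (SD, n = 5 each), with a log2 difference of -0.66 ± 0.28 (SE; 95% interval -1.26 to -0.059; limma adjusted p = 0.739). It was -0.60 among the prefixed libraries and -0.85 among the others. Marveld2 encodes tricellulin, which seals the corners where neighbouring cells meet. It had 161, 67.5, 114, 99.1 and 64.6 normalized counts in KO1 to KO5, against 156, 110.2, 181, 261 and 109 in WT1 to WT5. KO2, KO4 and KO5 lay below the lowest WT library, while KO1 lay above WT1, WT2 and WT5, so the groups overlapped. The log2 difference was -0.69 ± 0.31 (SE; 95% interval -1.35 to -0.027; limma adjusted p = 0.754), with -1.37 among the prefixed libraries and -0.044 among the others. Ocln and Marveld2 lie close together on chromosome 13, both on the minus strand, from 100496507 to 100552718 and from 100595957 to 100616971, with 43238 bases and 2 annotated genes between them.

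Cgn encodes cingulin, a cytoplasmic protein that links the ZO scaffolds to actin and myosin. It had 173, 111, 229, 141 and 97.8 normalized counts in KO1 to KO5, against 263, 115, 428, 353 and 278 in WT1 to WT5. WT2 was the 1 WT library within the KO range. The mean was 150.4 ± 52.8 in KO tumours, against 288 ± 117 in WT tumours (SD over 5 libraries each; log2 difference -0.87 ± 0.34 SE, 95% interval -1.60 to -0.14; limma adjusted p = 0.699). Without WT2 the difference was -1.17, and it was -1.40 among the prefixed libraries and -0.81 among the others. Pard6b encodes PAR6B, an adaptor that carries atypical protein kinase C in the PAR complex. Its levels were 97.9, 71.3, 77.3, 107 and 91.7 normalized counts in KO1 to KO5, against 129, 121, 139.8, 227 and 112 in WT1 to WT5. Every KO library lay below every WT library, which was the case for 0.734% of all tested genes in that direction, and the gap between the highest KO and lowest WT library was small. Its log2 difference was -0.67 ± 0.23 (SE; 95% interval -1.16 to -0.18; limma adjusted p = 0.654), with -0.70 among the prefixed libraries and -0.36 among the others.

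The ZO scaffolds bind occludin, claudins and JAM-A. Tjp3, which encodes ZO-3, the form found mainly in epithelium, was the least abundant member. It had 11.2, 9.38, 25.3, 24.5 and 16.6 normalized counts in KO1 to KO5, against 13.3, 33.7, 47.6, 32.6 and 22.2 in WT1 to WT5, from 8 to 49 reads per library. KO3, KO4 and KO5 lay within the WT range, and the log2 difference was -0.73 ± 0.40 (SE; 95% interval -1.59 to 0.13; limma adjusted p = 0.823), with -0.77 among the prefixed libraries and -0.44 among the others. Tjp3 shares 40 exonic bases with Apba3 on the opposite strand. Tjp1, which encodes ZO-1 and is expressed in epithelial and endothelial cells alike, had 2724, 2369, 2254, 1656 and 1096 normalized counts in KO1 to KO5, against 1862, 774, 2193, 3510.1 and 3072 in WT1 to WT5. Its WT libraries spanned the whole KO range, and the difference had no stable sign: it was -0.074 ± 0.38 (SE; 95% interval -0.89 to 0.74; limma adjusted p = 0.984), -0.42 without WT2, 0.13 without KO5, 0.12 without WT4 and 0.076 without WT5. It was -0.74 among the prefixed libraries and -0.47 among the others.

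F11r encodes JAM-A, which pairs with itself across the cell contact and binds the PAR complex, and it is present on leukocytes, platelets and endothelium as well. It had 835, 870.3, 977, 789.9 and 965 normalized counts in KO1 to KO5, against 947, 784, 1054, 1326 and 731 in WT1 to WT5. All 5 KO libraries lay inside the WT range. The log2 difference was -0.097 ± 0.18 (SE; limma adjusted p = 0.970), and its 95% interval of -0.49 to 0.29 leaves room for changes in either direction. Cxadr encodes CAR, the coxsackievirus and adenovirus receptor, another immunoglobulin-like protein of the junction. It had 2454, 1991, 2283, 1978 and 2007 normalized counts in KO1 to KO5, against 1959.7, 1185, 2497, 2097 and 2846 in WT1 to WT5. Here too the KO values fell within the WT range, with a log2 difference of 0.071 ± 0.22 (SE; 95% interval -0.40 to 0.55; limma adjusted p = 0.979). Cxadr shares 695 exonic bases with Btg3 on the opposite strand, and without a stated use of strand their reads cannot be told apart there. Signs flipped without 1 library for both genes: F11r was at 0.024 without WT4 and Cxadr at -0.12 without WT2. Within the prefixed libraries F11r was at -0.065 and Cxadr at 0.10, and among the others F11r was at 0.24 and Cxadr at -0.39.

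**Figure D2:**
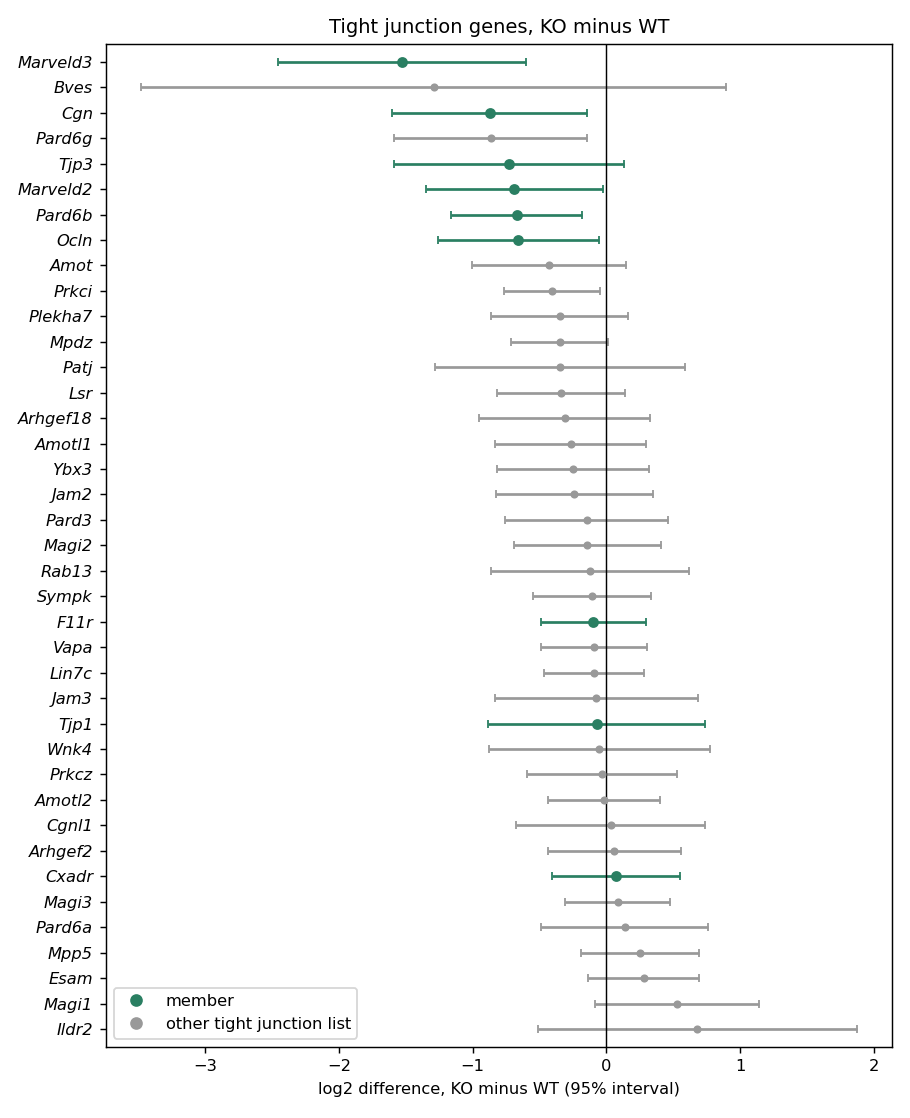
The log2 difference (KO minus WT, x axis) with its 95% interval for the 9 members (green) and genes of the other tight junction list (grey), sorted from lowest at the top. Marveld3, at -1.53, stands at the top, and 5 of the 9 member intervals lie wholly below 0.

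Set per length of exon, the members fell into a high and a low tier. F11r stood at 333 ± 30.6 normalized counts per kb in KO and 364 ± 89.2 in WT, Cxadr at 289.6 ± 29.1 and 286 ± 84.7, and Tjp1 at 259 ± 82.4 and 292 ± 137 (SD, n = 5 each). These 3 overlapped one another, and F11r exceeded Tjp1 in 8 of 10 libraries. Next, and below all 3 in every library, came Marveld2, Cgn, Marveld3, Ocln and Pard6b, with WT means from 42.9 to 48.3 normalized counts per kb that did not differ beyond their spread. In KO the same 5 genes had means from 17.5 (Marveld3) to 29.9 (Marveld2). Tjp3 was the lowest, at 4.68 ± 1.98 in KO and 8.04 ± 3.48 in WT.

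The share of a family's per-kb level that a member holds does not depend on the scaling of the libraries. It can still depend on their cell make-up, and the part of cell make-up in these shares was not tested. Of the per-kb level of the cingulin pair, Cgn held 7.13 ± 0.92% in KO tumours, against 12.7 ± 2.88% in WT tumours, and Cgnl1, which encodes paracingulin, held the rest (SD over 5 libraries each). The Cgn share ran from 5.87% to 8.45% in KO and from 10.2% to 17.5% in WT, so the groups did not overlap (two-sided exact permutation p = 0.00794, the smallest that 5 against 5 allows). Cgnl1 itself stood at 334 ± 137 normalized counts per kb in KO and 327 ± 127 in WT. Of the 3 MARVEL genes, Marveld3 held 22.2 ± 8.32% in KO tumours, against 32.9 ± 5.26% in WT tumours (two-sided exact permutation p = 0.0397), and its shares overlapped, running from 11.3% to 34.3% in KO and from 24.1% to 36.8% in WT. These p-values are not adjusted: 7 shares were compared, and these 2 were singled out after their values were seen. The permutation test also counted WT2 and WT5, which share the library number 170, as separate libraries. The shares of the other 5 members compared overlapped as well, with exact permutation p from 0.111 (Pard6b in the PAR6 family) to 0.643 (Cxadr).

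**Figure D3:**
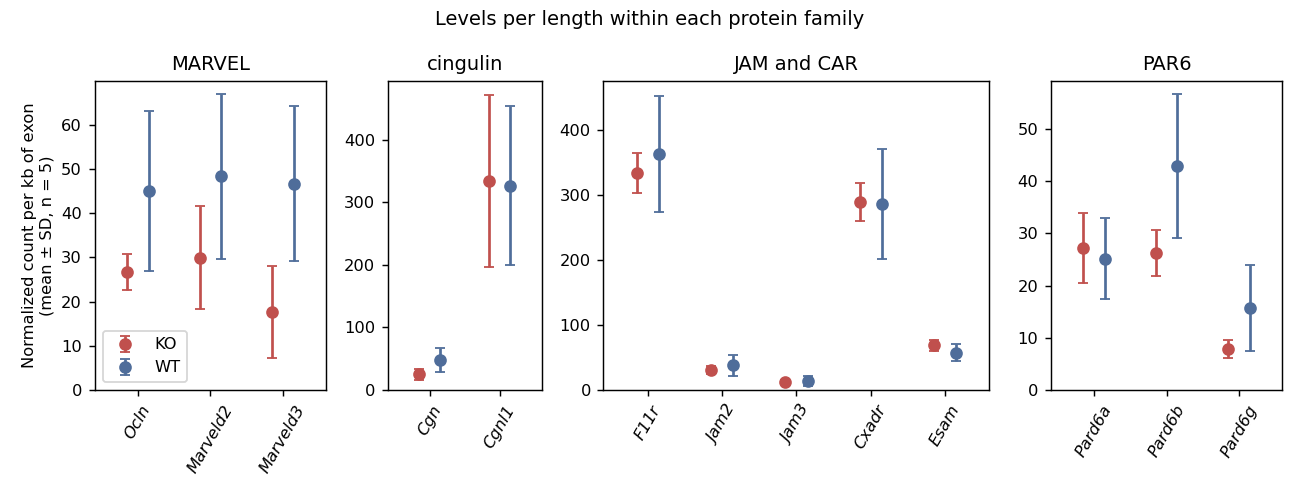
Normalized counts per kb of exon (y axis, a separate scale from 0 in each panel) for members and their paralogues, as mean and SD of 5 KO libraries (red, left) and 5 WT libraries (blue, right). Cgn lies far below Cgnl1 in both groups, and Marveld3 in KO lies below the other MARVEL genes.

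The promoters of 4 genes are shown for the contrast between genes with lower values in KO (Ocln, Cgn and Pard6b) and a gene whose groups overlapped fully (F11r). Each line gives the 250 bases before the annotated start, 5′ to 3′ on the strand of the gene, from RefSeq on GRCm38.p6: chr13:100552719-100552968 on the minus strand for Ocln, chr3:94786483-94786732 on the minus strand for Cgn, chr2:168080754-168081003 on the plus strand for Pard6b and chr1:171437311-171437560 on the plus strand for F11r. Capitals mark matches, on either strand, to AACNGGTT, the core bound by Grainyhead-like factors, and to CACCTG, the E-box bound by Snail and ZEB repressors.
Ocln: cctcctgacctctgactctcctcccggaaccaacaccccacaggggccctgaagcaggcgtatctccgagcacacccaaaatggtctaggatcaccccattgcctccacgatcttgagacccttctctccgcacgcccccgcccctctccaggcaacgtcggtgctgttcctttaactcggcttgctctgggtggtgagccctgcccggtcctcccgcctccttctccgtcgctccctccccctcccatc
Cgn: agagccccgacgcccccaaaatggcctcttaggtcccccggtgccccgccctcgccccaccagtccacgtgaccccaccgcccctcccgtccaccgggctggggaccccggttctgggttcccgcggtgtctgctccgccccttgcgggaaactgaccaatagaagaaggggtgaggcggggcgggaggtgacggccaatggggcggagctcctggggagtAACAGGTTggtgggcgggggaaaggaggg
Pard6b: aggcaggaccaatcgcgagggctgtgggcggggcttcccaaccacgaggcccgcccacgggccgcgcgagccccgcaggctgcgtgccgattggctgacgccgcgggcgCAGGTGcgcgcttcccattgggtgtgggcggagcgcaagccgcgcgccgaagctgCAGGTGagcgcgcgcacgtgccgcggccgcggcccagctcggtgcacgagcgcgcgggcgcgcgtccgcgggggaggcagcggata
F11r: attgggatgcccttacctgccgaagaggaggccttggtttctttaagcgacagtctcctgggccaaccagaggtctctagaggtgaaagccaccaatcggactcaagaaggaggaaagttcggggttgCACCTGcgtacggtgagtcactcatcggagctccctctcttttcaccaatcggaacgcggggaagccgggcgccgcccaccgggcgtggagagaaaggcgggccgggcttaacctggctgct
RefSeq windows were matched for 7 of the 9 members. Of those shown, Cgn held 1 match to AACNGGTT, Pard6b held 2 to CACCTG, F11r held 1 to CACCTG and Ocln held none. Of those not shown, Tjp3 held 1 match to CACCTG, and Marveld2 and Tjp1 held none to either. Over all 32851 windows 1.79% held AACNGGTT and 17.2% held CACCTG, so a match is a description of these letters and no more.

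Most epithelial markers, like most members, had lower fitted values in KO. Of the 22 epithelial markers 21 had lower fitted values in KO, with a median log2 difference of -0.88, and their summed level ran from 19036 to 24800.3 normalized counts in KO and from 22154 to 40882 in WT. Epcam had a log2 difference of -1.26, and Cdh1, which encodes E-cadherin, of -0.96, while Krt8, a keratin of simple epithelium, was at -0.29. The epithelial score, the mean log2 level of these markers, was 7.67 ± 0.58 in KO tumours, against 8.58 ± 0.55 in WT tumours (SD over 5 libraries each). In tissue RNA, fewer epithelial cells and less RNA per epithelial cell cannot be told apart. With the epithelial score as a covariate in limma, the median log2 difference of the members was -0.049, that of Marveld3 -0.43, of Ocln -0.28, of Pard6b -0.39, of Cgn -0.049 and of Marveld2 0.0068. Tjp1, F11r and Cxadr were at 0.38, 0.13 and 0.29 in that fit, and 0 of the 9 members passed.

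The members differed in how closely they followed the epithelial score across the 10 libraries. Of 18 relations computed, 9 members against 2 marker scores, Marveld3 had the highest Pearson correlation with the epithelial score (r = 0.92, permutation p = 0.00022, adjusted 0.00198; Spearman rho = 0.95, permutation p = 0.00011, adjusted 0.00198). Cgn followed at r = 0.90 (rho = 0.90; permutation p = 0.00022 and 0.00073, adjusted 0.00198 and 0.00657) and Marveld2 at r = 0.88 (rho = 0.78; permutation p = 0.00135 and 0.0107, adjusted 0.0081 and 0.0386). Without WT3 and KO2, the libraries farthest from the median score, these 3 stood at r = 0.95, 0.86 and 0.87. On deviations from the group means, which remove the difference between KO and WT, they were 0.86, 0.83 and 0.81. For all 18 relations the permutations mixed KO and WT libraries, so the p-values take in the difference between the groups. No p-value was computed on deviations. Pard6b had r = 0.76 (rho = 0.79; permutation p = 0.00991 and 0.00889, adjusted 0.0446 and 0.0386), 0.71 without those 2 libraries and 0.53 on deviations. For Ocln (r = 0.71, rho = 0.78) and Tjp3 (r = 0.73, rho = 0.68) the Pearson correlation rested on WT3 and KO2: without them r was 0.37 and 0.39. On deviations r was 0.50 for Ocln and 0.59 for Tjp3, and the adjusted permutation p of rho was 0.0386 for Ocln and 0.0883 for Tjp3. Tjp1, F11r and Cxadr had r of 0.33, 0.54 and 0.21 with permutation p of 0.350, 0.109 and 0.561. For F11r, r was -0.037 over the 5 KO libraries and 0.87 over the 5 WT libraries, too few in each group for a test.

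**Figure D4:**
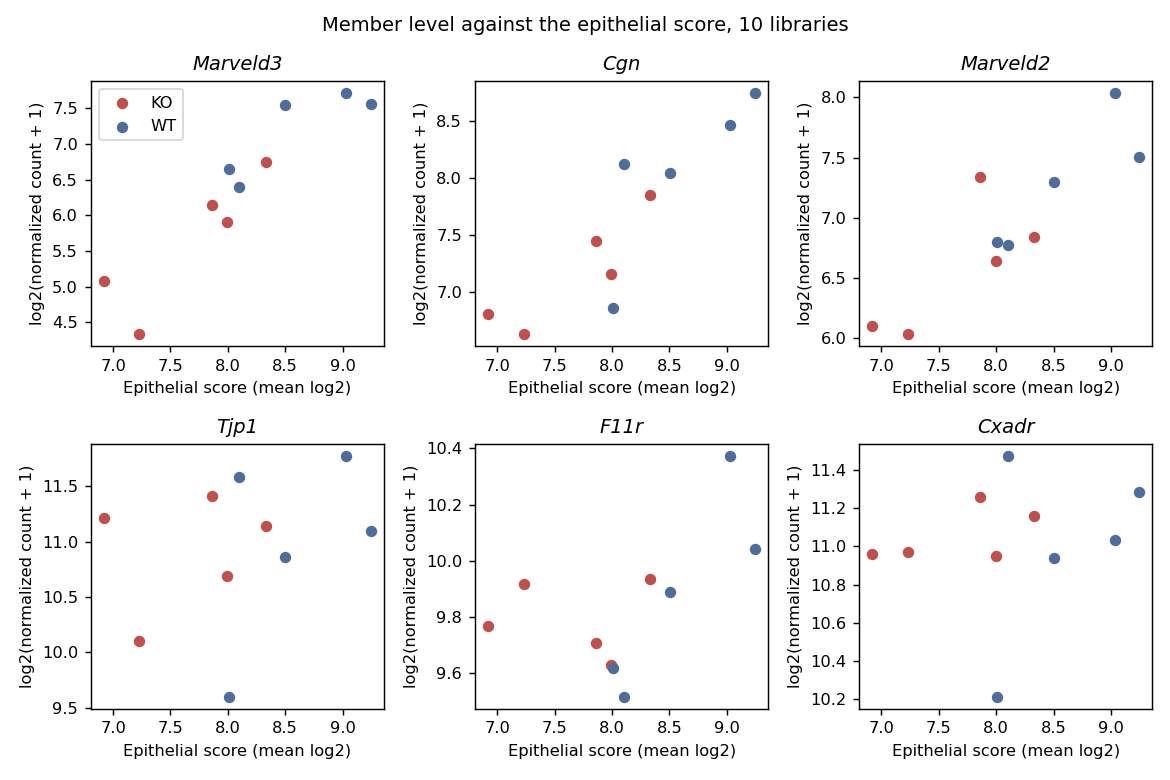
Log2 level of 6 members (y axis, log2 of the normalized count plus 1, a separate scale in each panel) against the epithelial score (x axis, mean log2 level of 22 markers) in the 10 libraries, KO in red and WT in blue. Marveld3, Cgn and Marveld2 in the top row rise with the score within both groups, while in the bottom row F11r rises with it among the WT libraries but not among the KO libraries, and Tjp1 and Cxadr scatter.

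The endothelial score, the mean log2 level of 13 vascular markers, was 8.21 ± 0.24 in KO tumours, against 8.16 ± 0.34 in WT tumours (SD over 5 libraries each). Pecam1, an endothelial adhesion molecule, was at 1183 ± 161.4 and 1186 ± 161.7 normalized counts. F11r had the highest correlation with it (r = 0.70, rho = 0.77; permutation p = 0.0214 and 0.0132, adjusted 0.0586 and 0.0396), which was 0.60 without WT2 and WT4, the libraries farthest from the median. Tjp1 had r = 0.53 (permutation p = 0.115), which was 0.027 without WT2 and WT4. The summed level of the 8 leukocyte markers ran from 10854 to 16769 normalized counts in KO and from 8670.01 to 15291 in WT, with 7 of 8 higher in KO. The part of leukocytes in the level of F11r was not tested.

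RNA of skin, muscle and fat differed between libraries as well. All 15 keratinocyte markers had lower fitted values in KO, and their summed level ran from 55.9 to 138 normalized counts in KO and from 49.96 to 7004 in WT, with 8 of the 15 at 0 in all KO libraries. Without WT2, WT3 and WT5, the libraries with Krt1 reads, the member median was -0.65. In that fit Marveld3 was at -1.99, Cgn at -1.08, Marveld2 at -1.07, Pard6b at -0.95 and Ocln at -0.65. Its only WT libraries were WT1 and WT4, both with the RESUB prefix, which KO5 alone carries among the KO libraries. Genotype and prefix were thus largely confounded in it. With the keratinocyte score as a covariate over all 10 libraries the member median was -0.44, with Tjp3 at -0.33 and Ocln at -0.44. Without WT2, WT3 and WT5, Tjp3 was at -0.35, Tjp1 at -0.41, F11r at -0.34 and Cxadr at 0.074. The 10 skeletal muscle markers summed to between 831 and 6295 normalized counts in KO and between 808 and 116088 in WT, with the highest sum in WT2, the WT library with the lowest level of Tjp1, Cxadr, Ocln and Cgn. The 7 adipocyte markers summed to between 491 and 5010.3 in KO and between 604 and 8950.5 in WT, and the 8 fibroblast markers to between 38417 and 74790.4 and between 36670 and 104866. The part of these tissues in the member differences was not tested.

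**Figure D5:**
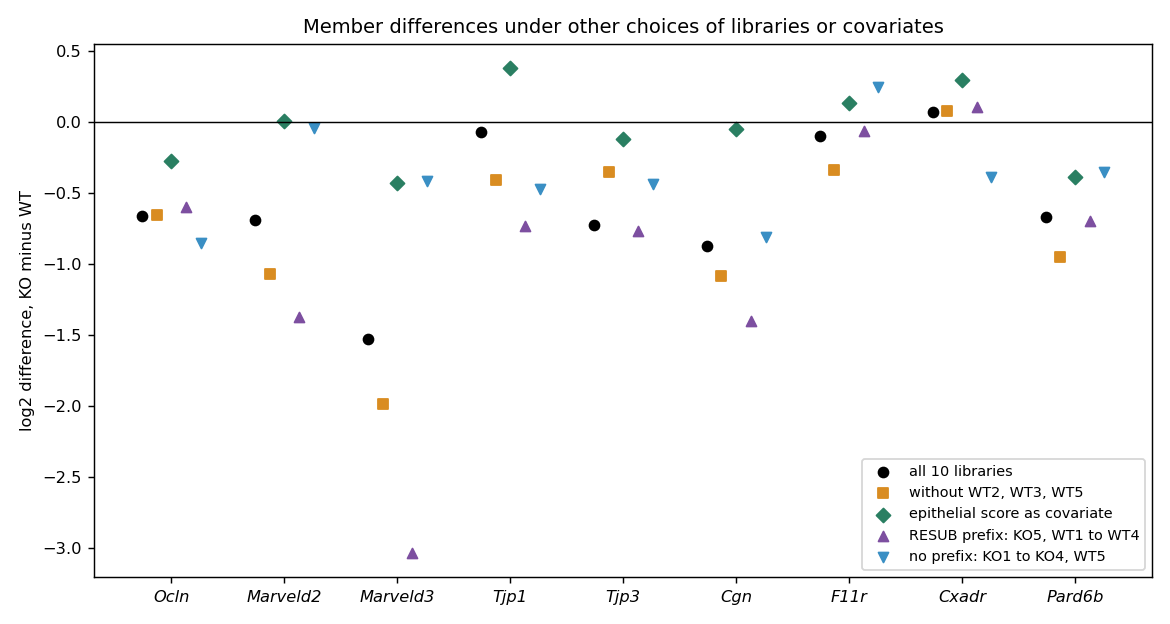
The log2 difference of each member (KO minus WT, y axis) in the fit of all 10 libraries (black circles), without the 3 libraries with Krt1 reads (orange squares), with the epithelial score as a covariate (green diamonds), and within the libraries with and without the RESUB prefix (purple and blue triangles). Ocln, Marveld3, Tjp3, Cgn and Pard6b lie below 0 in all 5, while Marveld3 spans -3.03 to -0.42. The orange squares rest on WT1 and WT4 alone among the WT libraries.

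Other components of the junction were taken from a separate list. Of 34 further tight junction genes 31 were tested, of which 23 had lower and 8 higher fitted values in KO, with a median log2 difference of -0.12. In limma 0 of the 31 passed adjusted over all genes, and at an unadjusted p under 0.05 there were 2 lower (6.45% of the list) and 0 higher, near the 3.67% and 2.82% of all tested genes. The 2 genes were Pard6g, a paralogue of Pard6b, with 24.8 ± 5.19 normalized counts in KO tumours, against 49.6 ± 25.8 in WT tumours (log2 difference -0.87), and Prkci, the atypical protein kinase C of the PAR complex, with 826 ± 113 and 1099.6 ± 169.6 (-0.41). The multi-PDZ scaffold gene Mpdz was at -0.35. Values above 0 were those of the scaffold gene Magi1 (0.53 ± 0.28 SE), the angulin family gene Ildr2 (0.68 ± 0.55), the endothelial adhesion gene Esam (0.28 ± 0.19) and Mpp5, which encodes the polarity scaffold PALS1 (0.25 ± 0.20), and all 4 of their 95% intervals held 0. Single libraries carried much of these values: Magi1 was at 0.29 without WT2, Ildr2 at 0.23 without WT3 and 0.31 without KO5, Esam at 0.18 without WT5, and Mpp5 at 0.13 without KO5 and 0.15 without WT4.

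Among 10995 genes, those whose levels ran most like those of each member were taken. The measure was the Pearson correlation of deviations from the group means over 10 libraries. None of the genes named stood among the 3 nearest of another member, but lists this short can hardly show overlap. Helz, Kdm1a and Dpy19l3 were nearest to Tjp1 (r = 0.99 each), and Cask, Galnt3 and Hmga2 to Cxadr (0.98, 0.97 and 0.95). Zc3h6 and Mtcl1 were near to Cgn (0.96 and 0.95), Sulf2, Zbtb46 and Slc9a5 to Marveld3 (0.96 each), and Tmem181a, Slc4a11 and Serinc2 to Marveld2 (0.95, 0.94 and 0.93). The nearest to F11r were Spry1, Snx33 and Prkcz (0.95 each), to Pard6b Krt19, Neurl1b and Cd82 (0.94, 0.93 and 0.89), and to Tjp3 Pwwp2b, Crabp1 and Syne4 (0.85, 0.83 and 0.83). Those nearest to Ocln were Gm38387, 5730507A11Rik and Gm37906 (0.94 each), all of the GENCODE class TEC, for transcripts still to be checked by experiment. These correlations describe the closest of many genes in 10 libraries that share depth and tissue make-up. Between members, the closest on the same measure were Marveld2 and Marveld3 (r = 0.83), Tjp1 and Cxadr (0.81) and Cgn and Cxadr (0.80), and Ocln and Marveld2 stood at 0.30.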

How the data were processed

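Tumours were sectioned as frozen tissue, per the series' design text, and their total RNA was depleted of ribosomal RNA and copied with random primers carrying molecular identifiers, per the labels' protocols. The deposited table holds signal values: read counts that the authors divided by a size factor for each library. Every value (100%) came out as a whole number of reads to within 0.0001 of a read, which gave back the reads. Per the submitters' processing notes, bcl2fastq 2.17 and the mouse build GRCm38 were used. The aligner, the counter and the use of strand and identifiers are not given in the sources used here. Tests covered the 17975 genes averaging 10 or more normalized counts, and 72 fell below that.

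The KO libraries were set against the WT libraries with limma 3.58.1 in R 4.3.3, on log2(normalized count + 1) with an intensity-dependent prior, and p-values were adjusted by Benjamini-Hochberg over all tested genes at 0.05. Because of the added 1, fold changes of low genes come out too small. The alternatives were edgeR 4.0.16 and DESeq2 1.42.0 on the recovered reads, other scalings, filters, pseudocounts and covariates, and fits without some libraries. The limma step was tested in 3 runs on simulated data with 200 changed genes. Each gene was drawn independently, without the shared tissue differences between libraries that these data hold. It called 21.7% of changes of 1 log2 unit and 78.7% of changes of 2 log2 units, and 2.59% of its calls were false. Correlations used 100000 permutations, two-sided. The members and lists were chosen with earlier results of these data known. Genes named are the members, up to 4 further junction genes in each direction by smallest p, the 3 nearest genes of each member and 5 markers; Cgnl1 was named after its values were seen. A check of the labels by the targeted gene, and some genes that this rule names, are not reported here.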

Additional observations from a re-analysis of the deposited data

Results flagged for a closer look

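Of 40 groups of 5 libraries checked for a library far from the others, 1 was flagged, where chance flags about 1 in 20. Pard6b in WT4 stood at 227 normalized counts, and the next highest WT library at 139.8, a gap of 0.758 of the range of the WT libraries. Without WT4 the log2 difference of Pard6b was -0.50.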

How the results depend on the processing

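No member changed sides of the threshold under 31 of the 32 alternatives, 1 of which (a minimum mean of 50) gives no value for Tjp3. The exception was limma with sample weights, which called 408 of 17975 genes, 175 of them lower. It called 3 members, all lower: Marveld3 (-1.84, adjusted p = 0.0205), Ocln (-1.04, adjusted p = 0.0231) and Cgn (-1.0, adjusted p = 0.0409). The cause was not tested. Over the alternatives the limma, edgeR or DESeq2 adjusted p ran from 0.0205 to 0.9995 for Marveld3. The count of all genes called, 1 in limma, was 121 in DESeq2, 52 within the libraries without the RESUB prefix and 31 with the epithelial score. It was 0 with limma-voom, within the prefixed libraries, with WT2 and WT5 averaged, with the keratinocyte score and after removal of WT2, WT3 and WT5, and 0 to 3 with 1 library left out. The member median ran from -0.75 to -0.50 with 1 library left out and was -0.049 with the epithelial score and -0.44 with the keratinocyte score. That of the further junction genes was 0.015 within the libraries without the prefix, -0.33 after removal of WT2, WT3 and WT5, which hold Krt1 reads, and -0.26 with the keratinocyte score. For the members the median was -0.74 among libraries bearing the prefix, -0.42 among the rest and -0.60 with a term for the prefix. Signs turned for Tjp1 with sample weights (0.051) and the epithelial score (0.38), and it ran from -0.42 to 0.13 with 1 library left out. F11r turned with the prefix as a term (0.089), within the libraries without it (0.24) and with the epithelial score (0.13), and ran from -0.19 to 0.024 with 1 left out. Cxadr turned with the prefix as a term (-0.14) and within the libraries without it (-0.39), and ran from -0.12 to 0.19 with 1 left out. Marveld2 (0.0068), Ildr2 (-0.65) and Mpp5 (-0.12) turned with the epithelial score. Esam turned with the keratinocyte score (-0.019) and after removal of WT2, WT3 and WT5 (-0.044), Ildr2 with the keratinocyte score (-0.053) and Mpp5 within the libraries without the prefix (-0.25). The replicate block left the member median at -0.67 and called 1 gene in all and no member; same-numbered libraries correlated at -0.23 to 0.52, and 2 of 10 libraries correlated best with their own number. A scaling on nuclear protein-coding genes was added after the data were seen and gave a member median of -0.64. Tjp3, with 8 to 49 reads per library, is limited by depth.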
